A study of Mus musculus with 6 samples.

Results

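The genes described here are the BCL2 family, the caspases and the genes that restrain or carry out apoptosis, 42 genes in all, measured in cardiomyocytes with and without the Hippo effector Yap. They were chosen by name, with earlier results of these data known. Each gene was read from the probe set whose annotation gave that gene symbol alone, and from the brightest of them on average over the arrays if there were several. Of the 42, 40 had such a probe set among 19938 genes in all. Bax, a pore-forming member, and Ripk1, a kinase of the tumour necrosis factor receptor, had none in the annotation used and were not analysed here.

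The samples were 6 RNA preparations from green fluorescent heart cells sorted from E12.5 embryos, each hybridised to 1 Affymetrix mouse gene array. Per the labels' protocols, both groups came from crosses of the TNTCre, Yap flox and R26 mTmG strains. TNTCre is a Cre recombinase under the promoter of the cardiomyocyte gene troponin T, and the mTmG reporter turns a cell green after Cre has acted. The 3 Yap HET arrays came from TNTcreYapfl_het embryos and the 3 Yap KO arrays from TNTcreYapfl_KO embryos. Sorted cells of both groups had thus seen Cre, and the comparison group was itself heterozygous for Yap. Hearts were digested individually, and whether any were joined for 1 array is not stated.

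Apoptosis through mitochondria is decided within the BCL2 family. BCL2-like proteins hold the pore formers BAX and BAK in check, and BH3-only proteins release that brake. Cytochrome c then leaves the mitochondria and assembles with APAF1 and caspase-9, whereas death receptors start a second route through FADD and caspase-8, and inhibitor of apoptosis proteins (the Birc genes) act against caspases or steer receptor signalling towards survival. The title of the series links Yap and PI3K-AKT signalling to the proliferation and survival of cardiomyocytes, and the contrast of the 2 groups asks which of these genes differ in mRNA level when Yap is lost.

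Values are deposited intensities on a linear scale. A log2 change is the Yap KO mean less the Yap HET mean, given ± its standard error. Adjusted p-values come from limma, corrected by Benjamini and Hochberg's method across the 13632 genes with a mean of at least 85.7. The call threshold was an adjusted p of 0.05. The arrays correlated at 0.992 or more within a group and at 0.984 to 0.991 across groups across tested genes, which do not count as replicates. The number of arrays limits the precision. Yap1 itself read 886, 927 and 871 in Yap HET cells against 103, 84.7 and 86.6 in Yap KO cells. None of the 16 cardiomyocyte markers tested passed the threshold (0 higher and 0 lower), and their summed intensity was 110915 to 112596 in Yap HET and 109362 to 111887 in Yap KO preparations. The brightest genes weigh most in that sum. Of the 16 changes, 7 were above 0 and 9 below. They included -0.18 for Nkx2-5 and -0.13 for Tnni1 (limma adjusted p = 0.12 and 0.13), and all Yap KO values of Tnni1 were below the Yap HET values.

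Of the 40 genes with a probe set, 37 were tested. Birc3, Tnfrsf1a and Api5 rose and Htra2, Bid and Casp2 fell in Yap KO cells. These 6 genes are 16.2% of the 37, against 9.93% of all genes tested, of which 5.16% rose and 4.76% fell. At an unadjusted limma p under 0.05, 9 members were higher and 5 lower, 37.8% together, against 28.2% of all genes tested (13.9% higher and 14.4% lower). The Yap HET and Yap KO values did not overlap for 15 members, 10 higher and 5 lower, or 40.5%, against 33.9% of all genes tested (16.7% higher and 17.2% lower). Each share rests on few genes, 6 of them called, and the genes were chosen with earlier results known. The changes were small. The median log2 change over the 37 was 0.003 and the median absolute change 0.09, against -0.02 and 0.10 over all genes tested, and 19 members had a change above 0 and 18 below 0. With each array centred on its median, 4 members rose and 2 fell, and the split over all genes went from 704 higher and 649 lower to 1055 and 339. Leaving out an array cut the 3 rises to 1, unless it was Yap HET replicate 2, and cut the 3 falls to 2 in every case, with Casp2 lost.

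**Figure D1:**
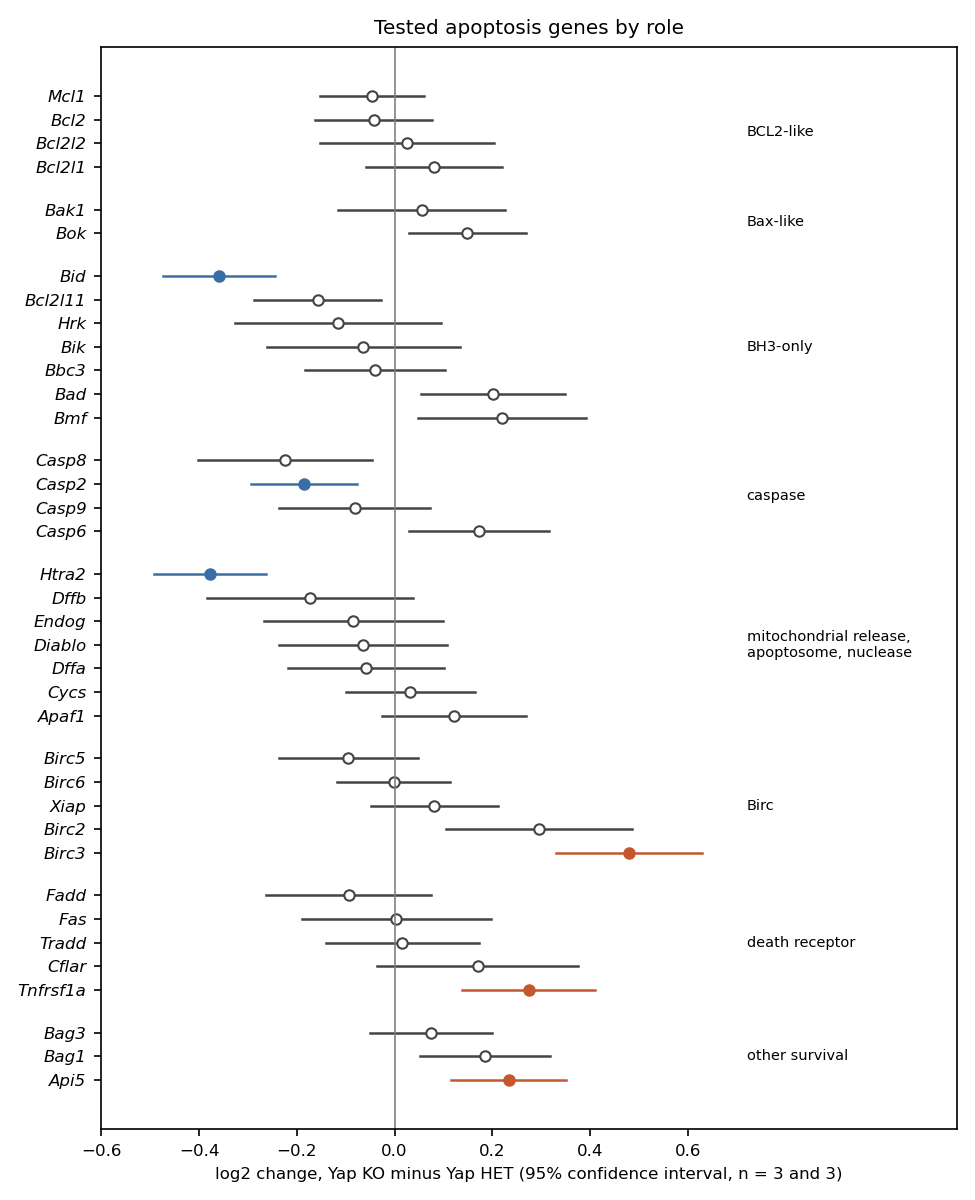
Log2 change (Yap KO minus Yap HET, horizontal axis) of the 37 tested genes, grouped by role, with 95% confidence intervals from limma (3 arrays in each group). Filled red points rose (Birc3, Tnfrsf1a, Api5), filled blue points fell (Htra2, Bid, Casp2), and open points did not pass the adjusted threshold.

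The regions in front of the called genes are shown so that the genes can be set beside each other as sequence. RefSeq promoter windows on the mouse assembly GRCm38.p6, 250 bases before to 50 bases after a gene's start, were at hand for 5 of the 6 called genes and are printed 5′ to 3′ on the gene's strand. Each was searched on both strands for GGAATG, the core bound by the TEAD factors through which Yap acts, for GCGGGAA, an E2F core, and for the kappaB consensus. Capitals mark a match.
Birc3, chr9:7873121-7873420, minus strand: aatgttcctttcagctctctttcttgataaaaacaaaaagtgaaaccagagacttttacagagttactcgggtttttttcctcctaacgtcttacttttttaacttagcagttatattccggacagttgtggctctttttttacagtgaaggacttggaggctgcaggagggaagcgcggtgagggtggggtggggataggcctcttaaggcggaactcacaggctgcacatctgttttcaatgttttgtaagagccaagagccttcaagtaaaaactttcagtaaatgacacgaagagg
Tnfrsf1a, chr6:125349473-125349772, plus strand: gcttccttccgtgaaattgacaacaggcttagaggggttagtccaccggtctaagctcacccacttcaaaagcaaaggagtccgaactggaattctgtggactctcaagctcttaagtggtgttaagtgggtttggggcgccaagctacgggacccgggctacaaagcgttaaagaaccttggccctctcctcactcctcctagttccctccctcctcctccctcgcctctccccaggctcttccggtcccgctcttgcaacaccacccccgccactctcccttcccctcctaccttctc
Api5, chr2:94438137-94438436, minus strand: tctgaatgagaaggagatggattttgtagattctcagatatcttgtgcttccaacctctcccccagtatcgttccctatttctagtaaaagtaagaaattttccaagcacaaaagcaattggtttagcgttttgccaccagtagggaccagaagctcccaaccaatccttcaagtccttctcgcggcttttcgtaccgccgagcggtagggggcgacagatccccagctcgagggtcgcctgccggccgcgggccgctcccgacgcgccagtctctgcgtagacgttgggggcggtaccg
Bid, chr6:120916775-120917074, minus strand: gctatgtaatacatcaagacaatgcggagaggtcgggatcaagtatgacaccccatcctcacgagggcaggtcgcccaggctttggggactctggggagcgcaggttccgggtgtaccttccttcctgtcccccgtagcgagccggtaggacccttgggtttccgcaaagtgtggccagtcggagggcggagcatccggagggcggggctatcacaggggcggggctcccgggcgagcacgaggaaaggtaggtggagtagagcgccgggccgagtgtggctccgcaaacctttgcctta
Casp2, chr6:42264735-42265034, plus strand: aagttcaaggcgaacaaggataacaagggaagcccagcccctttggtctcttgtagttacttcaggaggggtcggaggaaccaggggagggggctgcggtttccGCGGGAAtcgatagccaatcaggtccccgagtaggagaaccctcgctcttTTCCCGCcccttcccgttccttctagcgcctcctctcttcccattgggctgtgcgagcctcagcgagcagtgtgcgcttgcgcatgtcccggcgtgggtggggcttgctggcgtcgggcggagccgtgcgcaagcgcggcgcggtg
Only the Casp2 window of these 5 held a match, to the E2F core at bases 105 to 111 and, on the opposite strand, at bases 155 to 161. The E2F core was in 7.9% of the windows of all genes tested, the TEAD core in 12.3% and the kappaB consensus in 5.3%. The windows of the genes that rose held 43.0% G or C and 7 CpG dinucleotides (Birc3), 57.0% and 11 (Tnfrsf1a) and 54.7% and 22 (Api5). Those of the genes that fell held 63.3% and 22 (Bid) and 63.7% and 26 (Casp2), and the median over the windows of tested genes was 60.5% and 19. A match is a description of letters and says nothing about binding in these cells.

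The BCL2-like genes, whose proteins hold cells back from apoptosis, had no call among 4 tested, neither higher nor lower. By limma, 0 of the 4 had an unadjusted p under 0.05. Bcl2, the founding member, read 1016, 1006 and 1020 in Yap HET and 1028, 984 and 944 in Yap KO cells. The groups overlapped, and the log2 change was -0.04 (95% interval -0.16 to 0.08). Mcl1, a short-lived relative that the heart depends on, read 1393, 1392 and 1400 in Yap HET and 1379, 1340 and 1336 in Yap KO cells. All 3 Yap KO values of Mcl1 were lower, but by a log2 change of -0.05 with an interval of -0.15 to 0.06. Bcl2l1, which encodes BCL-XL, read 323, 330 and 314 in Yap HET and 317, 355 and 352 in Yap KO, a log2 change of 0.08 (-0.06 to 0.22) with overlapping groups. Bcl2l2, which encodes BCL-w, had 0.02 (-0.15 to 0.20). The signs of the changes in Bcl2 and Mcl1 turned to 0.02 when arrays were centred on their medians.

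The pore formers Bak1 and Bok, the 2 tested Bax-like genes, were both above 0 in change and neither was called. Bak1, the partner of Bax in permeabilising the outer membrane, read 1107, 1196 and 996 in Yap HET and 1154, 1094 and 1172 in Yap KO cells. The Yap HET values spread over the whole Yap KO range, and the log2 change was 0.06 (-0.12 to 0.23). Bok, a less studied member that can act without the others, read 545, 509 and 530 in Yap HET and 587, 600 and 569 in Yap KO cells. All 3 Yap KO values of Bok were higher, with a log2 change of 0.15 ± 0.05 that missed the threshold (limma adjusted p = 0.11).

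The BH3-only genes, the triggers of the mitochondrial route, went in both directions. Bid, which encodes the protein that caspase-8 cuts to carry a death receptor signal to mitochondria, read 242, 226 and 230 in Yap HET and 180, 182 and 182 in Yap KO cells. The Yap KO values lay close together and below every Yap HET value. The level fell 1.28-fold, a log2 change of -0.36 ± 0.05 (limma adjusted p = 0.0063). Bid was called under all 17 alternatives in which it was tested, with changes between -0.41 and -0.30. Some of these, such as another choice of probe set for Cflar and Cycs, left the values of Bid as they were.

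The other 6 BH3-only genes tested did not pass. Bcl2l11, which encodes BIM, a trigger held down by survival signalling, read 502, 511 and 494 in Yap HET and 473, 425 and 455 in Yap KO cells, without overlap (log2 change -0.16 ± 0.06, limma adjusted p = 0.12). In the other direction, Bmf, whose product binds the cell's motor complexes, read 307, 337 and 304 in Yap HET and 338, 397 and 371 in Yap KO cells (0.22 ± 0.07, limma adjusted p = 0.10). The lowest Yap KO value of Bmf was just above the highest Yap HET value. Bad, whose product is inactivated by AKT phosphorylation, read 167, 176 and 177 in Yap HET and 194, 189 and 215 in Yap KO cells, again without overlap (0.20 ± 0.06, limma adjusted p = 0.087). Hrk, Bik and the p53 target Bbc3, which encodes PUMA, overlapped between the groups, with log2 changes of -0.12, -0.06 and -0.04. Pmaip1, which encodes NOXA, read 67.8 to 83.0 in Yap HET and 72.5 to 78.5 in Yap KO cells, under the level of 85.7 and hence untested. The BH3-only class as a whole ranged from -0.36 to 0.22 with a median of -0.06.

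Among the caspases, the proteases of the pathway, 1 of 4 tested fell and none of the 4 rose. Casp2, an initiator linked to DNA damage and errors of chromosome number, read 867, 887 and 888 in Yap HET and 790, 765 and 769 in Yap KO cells. The groups were well apart for the small spread, although the fall was 1.14-fold (log2 change -0.18 ± 0.05, limma adjusted p = 0.047). Casp2 was called under 9 of the 18 alternatives. The limma adjusted p was 0.071 to 0.16 whichever array was left out, 0.11 with no filter and 0.28 with each array centred on its median, whereas it was 0.034 with quantile normalization and 0.035 with cyclic loess. Casp8, the initiator of the death receptor route, read 753, 749 and 653 in Yap HET and 585, 595 and 664 in Yap KO cells. Yap HET replicate 3 lay below Yap KO replicate 3, and the log2 change of -0.22 ± 0.08 did not pass (limma adjusted p = 0.11). Casp6, an executioner, read 788, 832 and 733 in Yap HET and 862, 868 and 919 in Yap KO cells, without overlap but also not past the threshold (0.17 ± 0.06, limma adjusted p = 0.12). Casp9, the initiator of the mitochondrial route, read 269, 286 and 313 in Yap HET and 273, 281 and 264 in Yap KO, a log2 change of -0.08 (95% interval -0.24 to 0.07). The inflammatory caspase gene Casp1 (27.6 to 38.5 over the 6 arrays) and Casp12 (15.3 to 27.4) were under the level for testing in every sample.

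Of the genes for proteins released from mitochondria and their targets, Htra2 stood apart. It encodes a serine protease of the space between the mitochondrial membranes which, once in the cytosol, binds inhibitor of apoptosis proteins. Inside mitochondria it serves protein quality control. Htra2 read 1491, 1478 and 1442 in Yap HET and 1169, 1101 and 1127 in Yap KO cells. The gap between the groups was several times the spread within them. It fell 1.30-fold, a log2 change of -0.38 ± 0.05 (limma adjusted p = 0.0053), and it was called under all 18 alternatives tried, with changes between -0.40 and -0.32. As for Bid, some of these left the values of Htra2 as they were. Diablo, which encodes SMAC, the other released antagonist of these inhibitors, read 884, 929 and 795 in Yap HET and 887, 807 and 797 in Yap KO cells and overlapped (-0.06, interval -0.24 to 0.11).

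The other 5 genes of this class overlapped between the groups as well. Apaf1, the scaffold of the apoptosome, had a log2 change of 0.12 (-0.03 to 0.27). The nuclease genes Endog and Dffb and the gene of the nuclease inhibitor, Dffa, had -0.08, -0.17 and -0.06. Cycs, which encodes cytochrome c, had 0.03 on its brightest probe set. Identifiers on this array follow chromosomal order, and that probe set sat among identifiers of chromosome 5 whereas Cycs lies on chromosome 6. What it reads is therefore uncertain. The dim Cycs probe set in the chromosome 6 run, at 123 to 167 over the 6 arrays, gave 0.14 ± 0.10 (limma adjusted p = 0.36).

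**Figure D2:**
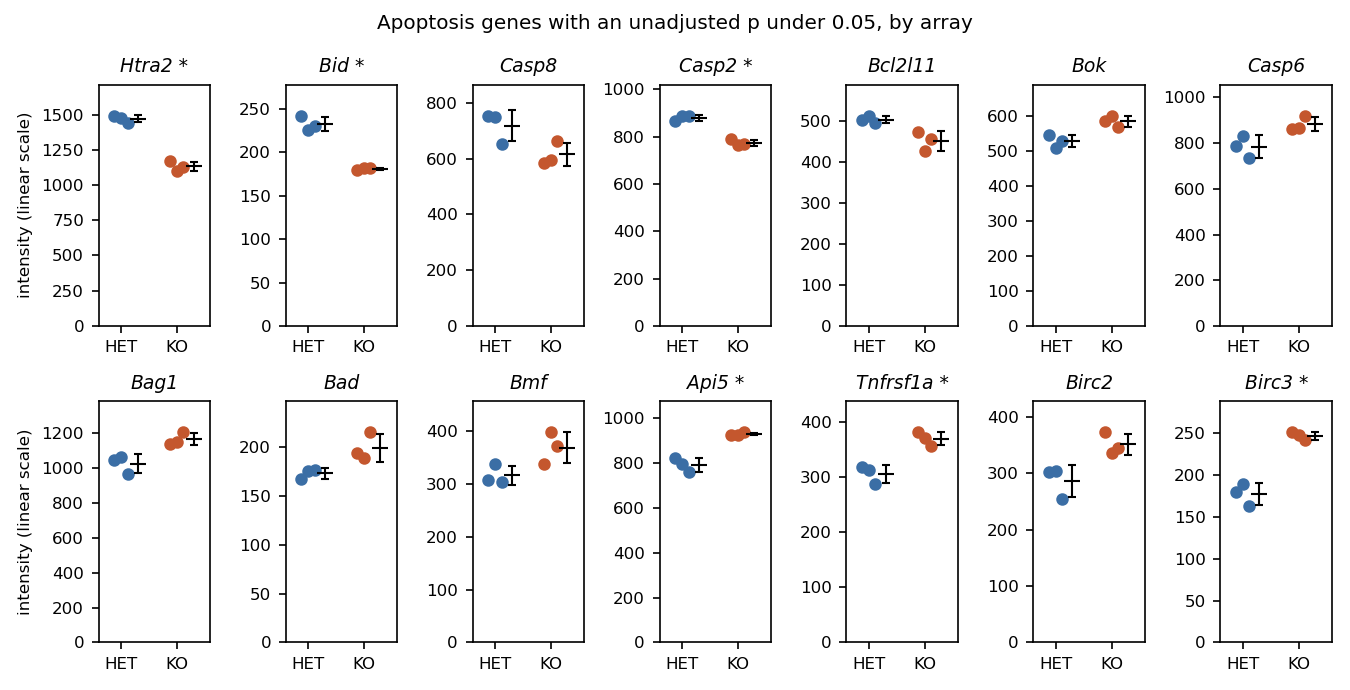
Intensity on each array (points, linear scale from 0) and the mean with the SD of 3 arrays (black bars) for the 14 genes with an unadjusted limma p under 0.05, ordered by log2 change. Stars mark the 6 genes past the adjusted threshold, and only Casp8 has overlapping groups.

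The Birc genes, which encode the inhibitor of apoptosis proteins, held the largest rise. Birc3, which encodes cIAP2, a ubiquitin ligase of tumour necrosis factor receptor signalling, read 179, 189 and 163 in Yap HET and 251, 247 and 241 in Yap KO cells. The lowest Yap KO value was well above the highest Yap HET value. Birc3 rose 1.39-fold, a log2 change of 0.48 ± 0.06 (limma adjusted p = 0.0058), and was called under 16 of the 17 alternatives in which it was tested. The exception was the linear model without moderation (adjusted p = 0.059). Birc2, which encodes the paralog cIAP1, read 302, 305 and 254 in Yap HET and 372, 335 and 345 in Yap KO cells. Its groups did not overlap, but the log2 change of 0.30 ± 0.08 missed the threshold (limma adjusted p = 0.062). It passed under 7 of the 18 alternatives. A dimmer Birc2 probe set read 98.8, 100.3 and 100.6 in Yap HET and 104, 103 and 90.0 in Yap KO, a log2 change of -0.02, so the probe sets of Birc2 disagree.

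The remaining Birc genes stayed below any call. Xiap, whose product binds and blocks caspases directly, read 544, 541 and 509 in Yap HET and 590, 550 and 547 in Yap KO cells. The lowest Yap KO value was just above the highest Yap HET value, with a log2 change of 0.08 (95% interval -0.05 to 0.21). Birc6, a giant ubiquitin ligase, had -0.001 (-0.12 to 0.11). Birc5, which encodes survivin, a subunit of the chromosomal passenger complex that acts in mitosis, read 723, 730 and 664 in Yap HET and 673, 626 and 685 in Yap KO cells. The groups overlapped, and the log2 change was -0.09 (-0.24 to 0.05). Of 24 mitosis genes tested, 4 fell and 0 rose, with a median of -0.14, and Aurkb, the kinase of that same complex, was among those that fell (-0.22 ± 0.05, limma adjusted p = 0.031). Incenp and Cdca8, also of that complex, had -0.18 and -0.12 with overlapping groups and were not called (limma adjusted p = 0.15 and 0.27). The difference between Birc5 and Aurkb was not tested.

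Birc3 and Birc2 are also the nearest neighbours of Yap1 on 1 side in the RefSeq gene table. Of the 5 genes on each side, 5 of 10 were tested, and Birc3 was the 1 that was called. Next came Tmem123, a transmembrane protein gene (2571, 2637 and 2462 in Yap HET, 2757, 2890 and 2881 in Yap KO, log2 change 0.15 ± 0.05, limma adjusted p = 0.10). On the other side, Cfap300 and Cep126 had 0.09 ± 0.09 and 0.15 ± 0.08 and did not pass. Over 10 protein-coding genes on each side, a wider span than the naming rule covered, 8 were tested, 2 rose and 0 fell. Over all genes tested, 5.16% rose. Every tested neighbour had a change above 0, from 0.02 (Mtmr2) to 0.48 (Birc3). In 5 of the 8, all Yap KO values were above all Yap HET values, against 16.7% of all genes tested. The 2 that rose were Birc3 and Arhgap42, a GTPase-activating protein gene (309, 352 and 302 in Yap HET, 383, 385 and 404 in Yap KO, 0.29 ± 0.07, limma adjusted p = 0.040). Whether the position beside Yap1 has a part in the level of Birc3 or Birc2 was not tested.

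**Figure D3:**
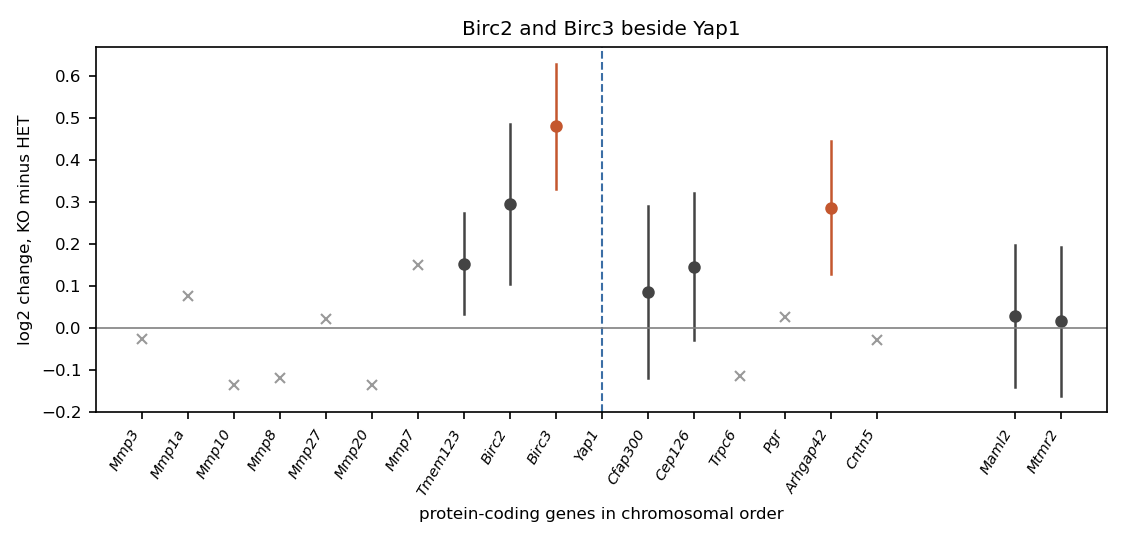
Log2 change of the measured protein-coding genes among the 10 on each side of Yap1, in chromosomal order, with 95% confidence intervals where tested. Crosses are genes under the level for testing, red points rose (Birc3 and Arhgap42), and the dashed line is the place of Yap1, whose own change of -3.29 is off the scale.

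Of the death receptor genes, Tnfrsf1a was the 1 of 5 tested that rose and none of the 5 fell. It encodes TNFR1, the main receptor of tumour necrosis factor, which can signal survival through cIAP1 and cIAP2 or death through caspase-8. Tnfrsf1a read 318, 313 and 287 in Yap HET and 381, 371 and 357 in Yap KO cells. The groups were apart, with a 1.21-fold rise (log2 change 0.27 ± 0.06, limma adjusted p = 0.028). The adjusted p lay between 0.058 and 0.11 when Yap HET replicate 1 or 3 or any Yap KO replicate was left out, and at 0.040 without Yap HET replicate 2. Tnfrsf1a was called under 10 of the 18 alternatives, and the call also ended with no filter (limma adjusted p = 0.079) and without moderation (0.089). The adaptor genes Fadd and Tradd had -0.09 (-0.26 to 0.08) and 0.02 (-0.14 to 0.17), and Fas, the other receptor, had 0.003 (-0.19 to 0.20). Cflar, which encodes FLIP, the decoy that blocks caspase-8, had 0.17 ± 0.09 on its brightest probe set (limma adjusted p = 0.25). That probe set sat among identifiers of chromosome 3 whereas Cflar lies on chromosome 1, and the brighter of the Cflar probe sets in the chromosome 1 run gave 0.05 ± 0.07 (limma adjusted p = 0.68). The dimmer one in that run, under the level for testing, gave 0.31. It read 65.7 to 76.1 in Yap HET and 78.6 to 95.2 in Yap KO cells, so the Cflar probe sets differ.

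Of the remaining survival genes, Api5 rose and Bag1 and Bag3 did not pass. Api5, a nuclear protein gene named as an apoptosis inhibitor, read 819, 795 and 757 in Yap HET and 925, 925 and 935 in Yap KO cells. The Yap KO arrays were nearly identical and above all Yap HET arrays, a 1.18-fold rise (log2 change 0.23 ± 0.05, limma adjusted p = 0.030). This call also ended when Yap HET replicate 1 or 3 or any Yap KO replicate was left out (adjusted p 0.062 to 0.11), and held at 0.048 without Yap HET replicate 2. Api5 was called under 10 of the 18 alternatives, and the losses included no filter (limma adjusted p = 0.083) and no moderation (0.062). Bag1, a cochaperone that binds BCL2, read 1047, 1065 and 964 in Yap HET and 1139, 1150 and 1203 in Yap KO cells, without overlap (0.18 ± 0.06, limma adjusted p = 0.085). Bag3, a cochaperone of cardiomyocyte protein quality control, had 0.07 (-0.05 to 0.20) with overlapping groups.

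**Figure D4:**
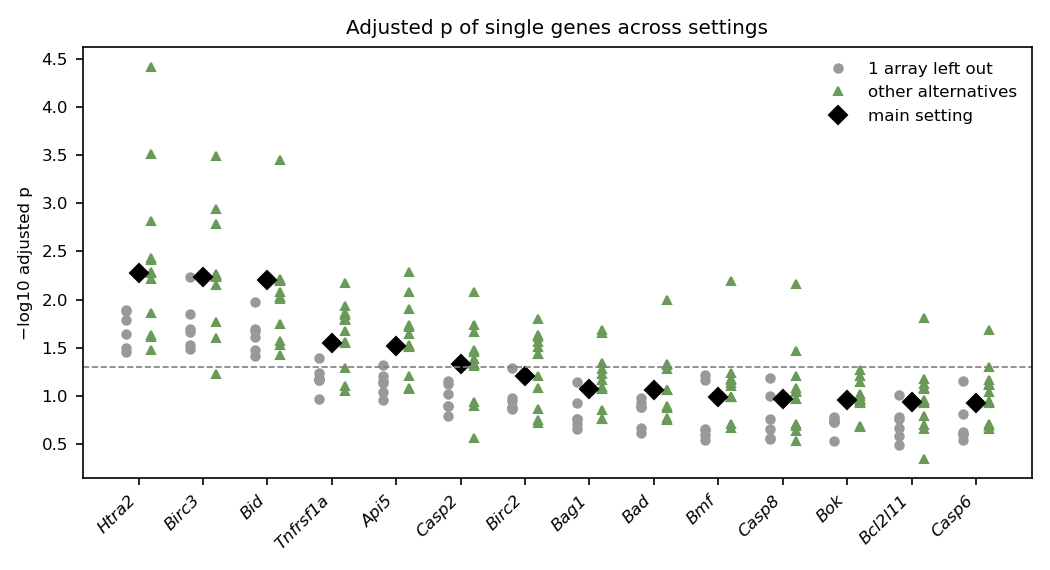
Adjusted p (as −log10, vertical axis) of the 14 genes with an unadjusted p under 0.05, under the main setting (diamonds), with 1 array left out (circles) and under the other alternatives (triangles). The dashed line is the threshold of 0.05; Htra2 and Bid stay above it in each setting, Birc3 in all but the linear model without moderation, and the others cross it or lie under it.

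Set side by side, the classes had low medians and few calls. The median log2 change was -0.01 for the BCL2-like genes, 0.10 for the Bax-like genes, -0.06 for the BH3-only genes, -0.13 for the caspases, -0.06 for the mitochondrial release, apoptosome and nuclease genes, 0.08 for the Birc genes, 0.02 for the death receptor genes and 0.18 for the other survival genes, beside -0.02 for all genes tested. Each class with a call held only 1. It was a rise in the Birc, death receptor and other survival classes, and a fall in the BH3-only, caspase and mitochondrial classes. At an unadjusted limma p under 0.05, 2 BH3-only genes were higher and 2 lower, and 1 caspase gene was higher and 2 lower. In no other class did such genes go both ways. Over all genes tested, 5.16% rose and 4.76% fell, and at that unadjusted p 13.9% were higher and 14.4% lower. The calls are counts of 1, and the classes hold 2 to 7 tested genes, too few to set against those shares. No test across classes was made, as the genes were chosen with earlier results of these data known. Averaged over its genes and relative to the Yap HET mean, the Birc class stood at 0.03, 0.06 and -0.09 in Yap HET and at 0.20, 0.12 and 0.14 in Yap KO. Its largest changes were 0.48 (Birc3) and 0.30 (Birc2), whereas Xiap, Birc6 and Birc5 had 0.08, -0.001 and -0.09. The caspase class stood at -0.01, 0.04 and -0.03 against -0.10, -0.09 and -0.05. Yap HET replicate 3 was the lowest of the 3 Yap HET arrays in every class, and over all genes tested too. The sign of the BCL2-like median turned to 0.02, 0.05 and 0.01 with quantile normalization, median centring and cyclic loess, and the medians of the other 7 classes kept their signs under those scalings. With median centring, however, the BH3-only and mitochondrial medians shrank to -0.0024 and -0.0034, and the caspase median to -0.072.

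**Figure D5:**
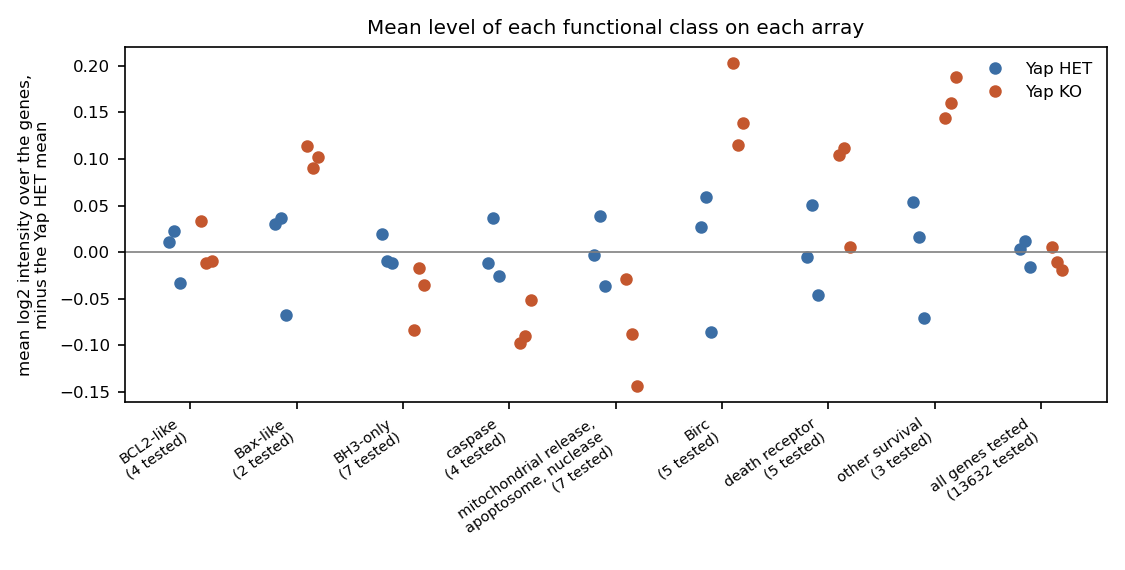
Mean log2 intensity of the tested genes of each class on each array, minus the class's Yap HET mean (vertical axis), with all genes tested at the right. The Yap KO points (red) of the Bax-like, Birc and other survival classes lie above all Yap HET points (blue). Those of the BH3-only and caspase classes lie below, and those of the BCL2-like, mitochondrial and death receptor classes overlap. Each mean rests on few genes and does not describe every gene of its class. The BH3-only changes, for example, ran from -0.36 (Bid) to 0.22 (Bmf), and the Birc changes from -0.09 (Birc5) to 0.48 (Birc3).

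Beyond the 42 genes, 66 of 76 other apoptosis genes had a probe set and 52 were tested, of which 2 rose and 0 fell (median -0.02). By limma, Bnip3, a hypoxia-responsive gene of mitochondrial turnover, rose by 0.59 ± 0.07 from a mean of 2257 to 3393. Ripk3, the kinase of necroptosis, a form of lytic death downstream of TNFR1, read 106, 110 and 117 in Yap HET and 137, 130 and 133 in Yap KO cells. The groups did not overlap (0.27 ± 0.06, limma adjusted p = 0.028), at a low level on the array. Of 19 tested genes that NF-kB controls or that control it, a pathway of which cIAP1 and cIAP2 are regulators, 2 rose and 2 fell (median -0.05). Tnfaip3, which encodes the feedback inhibitor A20, read 170, 191 and 164 in Yap HET and 245, 252 and 214 in Yap KO cells (0.44 ± 0.08, limma adjusted p = 0.019). The chemokine gene Cxcl12 rose by 0.36 ± 0.07 and the adhesion gene Vcam1 fell by 0.22 on the log2 scale. Map3k14, the NF-kB-inducing kinase that cIAP1 and cIAP2 help to degrade, read 191, 192 and 205 in Yap HET and 155, 168 and 166 in Yap KO cells (-0.26 ± 0.06, limma adjusted p = 0.028).

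Markers of other cell types moved with the same comparison, and Tnfrsf1a, Birc3 and Casp8 are expressed in many cell types. In sorted bulk samples, fewer cells of a type and less RNA per cell cannot be told apart. Of 15 mesenchymal and epicardial markers tested, 4 rose and 0 fell (Pdgfra, Pdgfrb, Postn and Tcf21), and the summed intensity was 8080 to 8866 in Yap HET and 8854 to 11379 in Yap KO preparations. The list did not move as a whole, since 10 changes were above 0 and 5 below. Of the 10, Twist1 missed the threshold (0.61, limma adjusted p = 0.057), with all Yap KO values above the Yap HET values. The 5 included the epicardial genes Upk3b (log2 change -0.68, limma adjusted p = 0.061), Upk1b (-0.45), Tbx18 (-0.37) and Aldh1a2 (-0.13), none past the threshold, and the Yap KO values of Upk3b and Tbx18 were all below the Yap HET values. Of 12 endothelial and endocardial markers tested, 3 rose (Kdr, Eng and Nfatc1) and 1 fell (Npr3), with sums of 2188 to 2315 and 2464 to 2661. Of the 12 changes, 8 were above 0 and 4 below. Emcn was higher in all Yap KO arrays without passing (0.40, limma adjusted p = 0.069). The defining endothelial genes Pecam1 and Cdh5 were near the level for testing, at 77.4 to 136 over the 6 arrays. Their changes were 0.13 and 0.36 (limma adjusted p = 0.36 and 0.076), with overlapping groups. Of 15 myeloid markers, 8 were under that level. Of the 7 tested, Lyz1 and Lyz2 rose and 0 fell, but the other 5 had changes below 0 and the median was -0.12. The Yap KO values of Cd68 (-0.72, limma adjusted p = 0.063), Csf1r (-0.21, limma adjusted p = 0.10) and Ptprc were all below the Yap HET values without passing. Ptprc, the pan-leukocyte gene, read 112 to 121 in Yap HET and 102 to 105 in Yap KO preparations, and the myeloid sums, Lyz1 and Lyz2 included, were 2744 to 3153 and 3073 to 3510. Of 7 erythroid markers with a probe set, 6 were tested and 0 passed the threshold, with sums of 540 to 931 and 662 to 2834. Of the 6 changes, 5 were above 0 and 1 below. The globin gene Hbb-y had the highest change of all genes tested, 2.89 (limma adjusted p = 0.15), and Hba-x had 1.99. Hbb-y varied widely between arrays, at 232, 27.1 and 19.8 in Yap HET and 1295, 450 and 86.3 in Yap KO. Of 21 immediate early and dissociation genes, 6 fell and 0 rose (median -0.21). The part of any of these in the changes of the apoptosis genes was not tested.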

How the data were processed

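The 42 genes and all gene lists were chosen with earlier results of these data known. The deposited values are intensities of 35556 probe sets on 6 arrays, on a linear scale. Per the submitters' processing notes the authors used RMA, a summary that usually gives log2 values. How they came to be linear is not stated. Log2 was taken here before any test.

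Gene names came from the array's annotation (21789 with 1 symbol, 1621 with several, 12146 unnamed). RefSeq's GRCm38.p6 gene list gave current symbols, by Entrez number, for 21698 probe sets. The same list gave the order of genes around Yap1 and the chromosome of each gene, and none of its coordinates are printed. Genes whose geometric mean was under the 40th percentile of all probe sets (85.7) were left out, which left 13632. The comparison used limma 3.58.1 (lmFit, then eBayes) under R 4.3.3, with group as the only term and Benjamini-Hochberg adjustment. The fit was tested on simulated data. The arrays are described as biological replicates. Values on every array are given for genes past the adjusted threshold, for those with an unadjusted p under 0.05 and for 8 core genes, of which Bax was not analysed here. The rule also names Yap1, the 5 genes on each side of it and the called genes of the apoptosis and NF-kB lists. Per-array values of Diablo, and Arhgap42, Aurkb, Incenp, Cdca8 and the individual cell type markers, were chosen after their values were seen. Similar genes can share a probe set's signal.

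Alternatives changed the filter (none, or the 60th percentile), averaged the probe sets per gene, rescaled the arrays (quantile, median centring, cyclic loess), changed the variance model (trended robust prior, no moderation, array weights), added the replicate number as block or Xist as covariate, or left out each array. Another choice of probe set for Cflar and Cycs was added after the data were seen.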

Additional observations from a re-analysis of the deposited data

How the results depend on the processing

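The log2 changes of the 6 called genes kept their sign under all alternatives in which they were tested. Most of these alternatives could not turn a sign. Changes of filter, prior, moderation or block leave the change itself as it was. The groups of these 6 genes do not overlap, so leaving out an array could not turn it either. Htra2 and Bid kept their calls as well, and 11 of the 37 genes, none of them called, changed sign under some alternative. The members called higher went from 3 to 1 with no filter, 5 with quantile normalization, 5 with cyclic loess, 5 with a trended and robust prior, 10 with array weights, 1 with the replicate block and 0 without moderation, where 8 were higher at an unadjusted p under 0.05, against 9 with limma. They were 1 to 3 with an array left out. The members called lower were 7 with array weights, 2 whichever array was left out, and 2 to 4 under the other alternatives. Over all genes, 704 higher and 649 lower became 271 and 237 with no filter, where 19938 genes were tested. Of 13632 genes tested, 958 were higher and 765 lower with quantile normalization, and 964 and 736 with cyclic loess. Of the same number, 1189 and 1057 were called with the trended prior and 2038 and 2579 with array weights. They were 395 and 303 with the replicate block and 94 and 137 without moderation. In each of these settings, the count called higher moved the same way over all genes as among the members. With median centring 339 were lower. With an array left out, 214 to 783 were higher and 206 to 597 lower. Of the class medians, the caspase median moved from -0.13 to -0.071 with no filter, where the dim Casp1 and Casp12 enter, to -0.072 with median centring and to -0.079 with array weights. The BCL2-like median moved from -0.01 to -0.043 with the 60th percentile filter, -0.043 with array weights and 0.052 with median centring. The death receptor median moved from 0.02 to 0.093, 0.10 and 0.077 in the same order. Median centring also gave 0.16 for the Bax-like, -0.0024 for the BH3-only, -0.0034 for the mitochondrial and 0.25 for the other survival genes. With an array left out, the medians ran from -0.050 to 0.012 for the BCL2-like, -0.11 to -0.028 for the BH3-only, -0.16 to -0.10 for the caspase and -0.0082 to 0.075 for the death receptor genes. Median centring subtracts an array's median from all its values, so it shifts the change of every gene by the same amount. Apart from that and the filter, which changes the genes tested, the cause of these shifts was not tested. The deviations of same-numbered arrays correlated at -0.08, -0.17 and 0.12, and not every array correlated best with its own number. With 3 arrays in each group, these values cannot exclude a pairing of the arrays. With the replicate block, the adjusted p was 0.051 for Tnfrsf1a, 0.085 for Api5 and 0.13 for Casp2. The probe sets of Cflar and Cycs chosen after the data were seen changed no call. That choice and the averaging of probe sets left the values of the 6 called genes as they were. Their tallies of alternatives therefore include settings that could hardly differ from the main one. The smallest change called among the 37 genes was -0.18 (Casp2), and no detection call was used, so dim genes are limited by an intensity level alone.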

Other observations

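RefSeq promoter windows were at hand for 38 of the 42 genes, 50 windows in all. Their median was 61.8% G or C with 21 CpG dinucleotides, beside 60.5% and 19 over the 13822 windows of all genes tested. The TEAD core was in 4 of the 50 windows, 8.0% against 12.3%, and those were windows of Bcl2l1, Hrk, Mcl1 and Ripk1. The E2F core was in 4 (8.0% against 7.9%), of Casp2, Fadd, Bbc3 and Ripk1, and the kappaB consensus in 4 (8.0% against 5.3%), of Bbc3, Bcl2l1, Birc5 and Bmf. These are counts of letters in short windows, with several windows for some genes.

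Over the whole array, 96.8% of 21698 probe sets with a placed gene lay among identifiers of that gene's chromosome. Among 45 probe sets of the apoptosis genes, 3 did not, 1 of Cflar and 2 of Cycs.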
